A study of Mus musculus with 8 samples.

Results

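Myog, Myod1, Mef2c, Runx1 and Ache were followed in the tibialis anterior, which lifts the foot, of mice with cancer cachexia (wasting of muscle in cancer) and of healthy mice. The 5 genes were chosen by name, with earlier results of these data known, for rising (Myog and Runx1) or falling (Myod1, Mef2c and Ache) in cachectic muscle. They are 5 of 6028 genes listed in at least 1 of 2 deposited tables, and neither table lacks any of them. The 4T1 cachectic group was of Balb/c mice that had received 4T1, a metastatic mouse breast cancer line, and was set against healthy Balb/c mice. The C26m2 cachectic group was of CD2F1 mice that had received C26m2, a metastatic mouse colon cancer line, and was set against healthy CD2F1 mice. All mice were aged 12 to 14 weeks. The cancer cells carried luciferase. Tumours were removed at 2 to 3 weeks and muscle was taken at 5 weeks from injection, once imaging had shown metastases. No injection or surgery is recorded for healthy mice, so the cancer and these procedures cannot be told apart. Each of the 4 groups had 2 libraries of poly-A RNA, and nothing in the labels says which animal gave which library.

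Values are the authors' group levels, 1 per group, in FPKM, a fragment count corrected for transcript length and library size, so no spread between libraries can be given and depth is unknown. The tables hold genes with a q-value of 0.05 or less in the authors' Cuffdiff test, and being listed is what called means below. Because these values chose the 5 genes, they are described here with no test. In bulk muscle, fewer cells of a type and less RNA per cell cannot be told apart. Most fibre markers checked were not listed. Of 10 fibre genes, Mylpf, the fast-fibre regulatory light chain, was listed in both models and Actn3 in C26m2 only. Mylpf was at 3285 FPKM in 4T1 cachectic muscle against 13985 FPKM in healthy Balb/c muscle. It was at 4713 FPKM in C26m2 cachectic muscle against 11181 FPKM in healthy CD2F1 muscle. Actn3 was at 960 FPKM in C26m2 cachectic muscle against 1581 FPKM in healthy CD2F1 muscle.

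Myogenin (Myog) and MyoD (Myod1) belong to the MyoD family of basic helix-loop-helix factors, which pair with E proteins, bind E-boxes and switch on muscle genes. Mef2c, a MADS-box factor, acts with them, and its activity is held down by class II histone deacetylases. In adult muscle, electrical activity driven by the motor nerve keeps Myog low, and after nerve loss Myog and Runx1, a Runt-domain factor, are induced in rodents. Ache encodes acetylcholinesterase, which ends the nerve's signal at the neuromuscular junction.

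Since MyoD family factors bind E-boxes and MEF2 factors bind A/T-rich sites, the stretches upstream of the start sites were searched for both. The RefSeq promoter table (GRCm38.p6, not the build of the expression files) matched 4 of the 5 genes, with 7 start sites in all, and Myod1 has no entry in it. Each stretch below runs 5′ to 3′ toward the start and is shown for the genes that rose (Myog, Runx1) and fell (Mef2c, Ache). Capitals mark E-boxes (CANNTG, which reads the same on both strands) and 10-letter stretches that match the MEF2 consensus at 9 positions. For Runx1, the 75 bases next to the start, which the GENCODE annotation places in an exon, are left out. GENCODE also places 15 bases of the Myog stretch in an exon. The bases after the Ache start were not found in a GENCODE transcript of the gene.
Myog (chr1:134289754-134290003, plus strand): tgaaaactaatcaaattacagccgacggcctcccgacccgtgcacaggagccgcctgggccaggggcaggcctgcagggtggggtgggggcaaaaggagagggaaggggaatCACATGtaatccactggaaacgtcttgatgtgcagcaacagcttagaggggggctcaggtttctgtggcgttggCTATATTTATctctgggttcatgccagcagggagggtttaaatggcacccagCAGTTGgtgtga
Runx1 (chr16:92826150-92826324, minus strand, first of 2 starts): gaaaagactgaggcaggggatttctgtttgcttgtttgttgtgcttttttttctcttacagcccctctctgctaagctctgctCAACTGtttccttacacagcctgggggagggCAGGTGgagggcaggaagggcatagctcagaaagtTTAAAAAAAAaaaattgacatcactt
Mef2c (chr13:83503784-83504033, plus strand, first of 3 starts): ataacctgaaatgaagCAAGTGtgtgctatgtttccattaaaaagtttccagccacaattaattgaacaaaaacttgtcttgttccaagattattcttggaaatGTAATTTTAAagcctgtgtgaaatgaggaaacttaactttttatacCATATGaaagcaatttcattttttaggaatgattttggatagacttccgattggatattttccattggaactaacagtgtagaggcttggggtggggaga
Ache (chr5:137288004-137288253, plus strand): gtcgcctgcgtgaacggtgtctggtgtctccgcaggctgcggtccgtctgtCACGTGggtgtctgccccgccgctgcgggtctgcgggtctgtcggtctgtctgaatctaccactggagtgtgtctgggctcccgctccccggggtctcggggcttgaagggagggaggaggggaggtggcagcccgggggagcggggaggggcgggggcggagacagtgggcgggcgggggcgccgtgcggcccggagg

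The Myog stretch holds an E-box at bases -138 to -133 and another at -12 to -7, counted back from the start, with the MEF2-like CTATATTTAT between them at -64 to -55. Its proximal E-box and this A/T-rich site are known as control elements of the mouse gene. The first Runx1 start had 3 E-boxes in its 250 bases, 1 of them in the part left out, and the second start had 0. The first Mef2c start had 2 E-boxes, the second 0 and the third 1. Ache had a single E-box, CACGTG, at -199 to -194. E-boxes stood in 66.2% of 32851 promoters of the same length and 9-position MEF2-like stretches or better in 25.0%, so matches of both kinds are common. No stretch of the 7 matched the full MEF2 consensus, which 2.92% of promoters held. None held the RUNX core in the form TGTGGT or its reverse complement ACCACA, found in 14.0%. The form TGCGGT was not searched for, and the Ache stretch above holds it. Which start the muscle used cannot be read from the deposited tables.

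Myogenin rose in both models, and its level differed most between them. Myog stood at 37.3 FPKM in 4T1 cachectic muscle against 3.74 FPKM in healthy Balb/c muscle, a 9.98-fold rise (log2 fold change 3.32). It stood at 4.55 FPKM in C26m2 cachectic muscle against 2.07 FPKM in healthy CD2F1 muscle, a 2.20-fold rise (log2 fold change 1.14). The rise exceeded that of 91.0% of the higher genes in the 4T1 table but was close to the middle in the C26m2 table, at 50.3%.

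MyoD, which starts the muscle programme in activated satellite cells and is also made in fast fibres, fell in both models. Myod1 was at 2.31 FPKM in 4T1 cachectic muscle and at 19.3 FPKM in healthy Balb/c muscle, an 8.35-fold fall. It was at 3.01 FPKM in C26m2 cachectic muscle and at 16.7 FPKM in healthy CD2F1 muscle, a 5.55-fold fall. Healthy muscle of both strains thus held more Myod1 than Myog, and cachectic muscle of both models held more Myog than Myod1. The ratio of Myog to Myod1 FPKM was 16.1 in 4T1 cachectic muscle against 0.194 in healthy Balb/c muscle, and 1.51 in C26m2 cachectic muscle against 0.124 in healthy CD2F1 muscle.

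**Figure D1:**
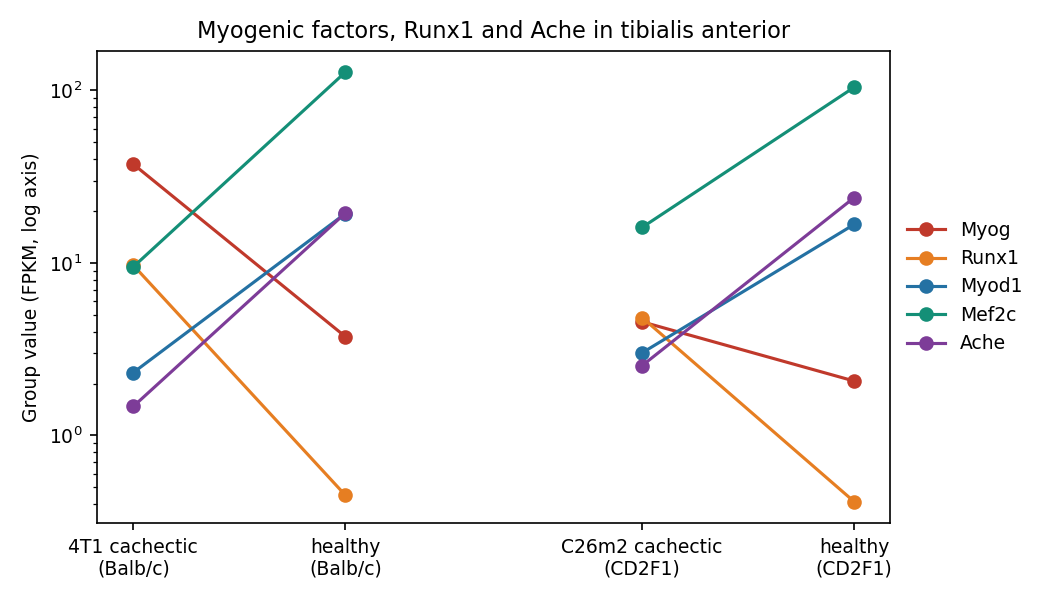
Group levels of the 5 genes (FPKM, log axis) in each cachectic group and, to its right, its healthy group, with lines joining the groups of 1 model and 1 authors' value per point. Myog and Runx1 are higher in both cachectic groups and Myod1, Mef2c and Ache lower, with Myog at 37.3 FPKM in the 4T1 group and 4.55 FPKM in the C26m2 group.

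The third listed member of the family, Myf6 (MRF4), the most abundant of them in healthy muscle, fell as well. Myf6 was at 11.3 FPKM in 4T1 cachectic muscle against 52.5 FPKM in healthy Balb/c muscle, and at 28.4 FPKM in C26m2 cachectic muscle against 55.7 FPKM in healthy CD2F1 muscle. Myf5 was not listed in either table. The summed FPKM of Myog, Myod1 and Myf6 was 51.0 in 4T1 cachectic muscle against 75.6 in healthy Balb/c muscle. It was 36.0 in C26m2 cachectic muscle against 74.5 in healthy CD2F1 muscle. Myog made up 73.3% of that sum in 4T1 cachectic muscle against 4.95% in healthy Balb/c muscle, and 12.7% in C26m2 cachectic muscle against 2.78% in healthy CD2F1 muscle. Myf6 stayed the most abundant of the 3 in C26m2 cachectic muscle, at 79.0% of the sum against 74.8% in healthy CD2F1 muscle.

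**Figure D2:**
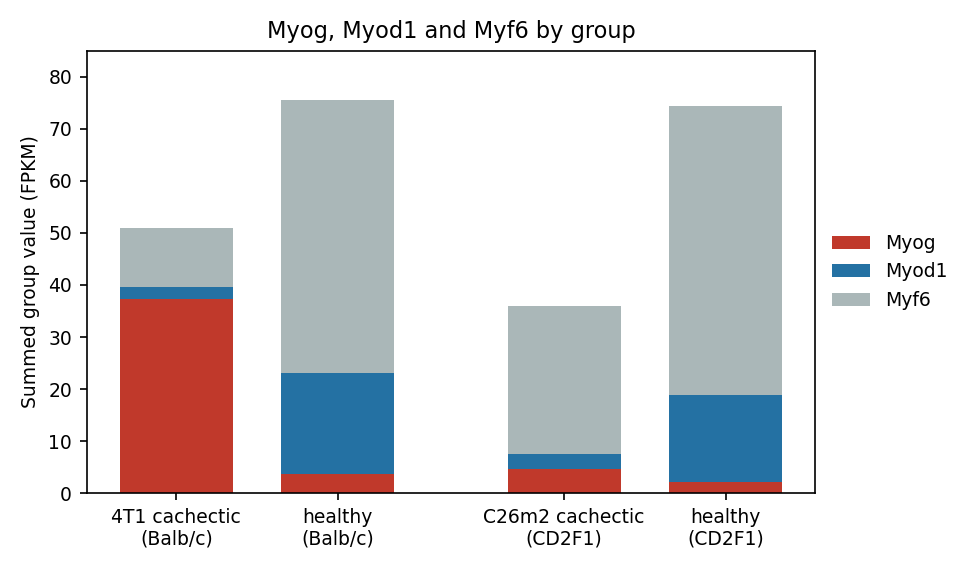
Summed group levels (FPKM) of Myog, Myod1 and Myf6, stacked, in each cachectic group and, to its right, its healthy group. Myog takes 73.3% of the 4T1 cachectic bar, whereas Myf6 takes 79.0% of the C26m2 cachectic bar.

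Other myogenesis genes were lower in every listed case in 4T1 and went both ways in C26m2. The 4T1 table listed 32.5% of about 13321 genes tested, 17.3% as higher and 15.2% as lower. The C26m2 table listed 36.8% of about 13135, 21.7% as higher and 15.1% as lower. Of the 5 chosen genes, 2 were higher and 3 lower in each table, which the choice fixed. Of 19 further genes of myogenesis, 8 were listed in the 4T1 table (42.1%), all of them lower. The C26m2 table listed 5 of the 19 (26.3%), 2 higher and 3 lower. Their median log2 fold change was -2.15 in 4T1 and -0.97 in C26m2, beside 0.86 and 0.72 over all listed genes. Fgfr4, a fibroblast growth factor receptor of regenerating muscle, was at 0.953 FPKM in 4T1 cachectic muscle against 33.0 FPKM in healthy Balb/c muscle. It was not listed in C26m2. Igfbp5, which binds insulin-like growth factors and rises in differentiating myoblasts, fell 15.8-fold in 4T1 and 16.0-fold in C26m2. Mstn (myostatin), which restrains muscle growth, and Des (desmin) rose 1.82-fold and 1.71-fold in C26m2. Satellite-cell markers moved both ways beside Myog and Myod1. Of 12, 4 were listed in 4T1, 2 higher and 2 lower, with a summed level of 89.2 FPKM against 23.8 FPKM in healthy Balb/c muscle. In C26m2, 3 were listed, 2 higher and 1 lower, with a summed level of 63.0 FPKM against 39.1 FPKM in healthy CD2F1 muscle. The shares of satellite-cell markers listed were 33.3% in 4T1 and 25% in C26m2, beside 32.5% and 36.8% of all genes tested. Pax7, which defines satellite cells, was at 0.148 FPKM in 4T1 cachectic muscle against 0.625 FPKM in healthy Balb/c muscle and was not listed in C26m2. Sdc4, which many cell types express, carried most of the summed rise, at 64.2 FPKM in 4T1 cachectic muscle against 9.58 FPKM in healthy Balb/c muscle and 30.2 FPKM in C26m2 cachectic muscle against 6.98 FPKM in healthy CD2F1 muscle. The part of these cells in the Myog and Myod1 values was not tested.

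Mef2c was the most abundant of the 5 genes in healthy muscle and lost the most FPKM. It was at 9.48 FPKM in 4T1 cachectic muscle against 127 FPKM in healthy Balb/c muscle, a 13.4-fold fall (log2 fold change -3.75). It was at 16.1 FPKM in C26m2 cachectic muscle against 104 FPKM in healthy CD2F1 muscle, a 6.49-fold fall (log2 fold change -2.70). In C26m2 cachectic muscle Mef2c was still the highest of the 5, while in 4T1 cachectic muscle it stood below Myog and next to Runx1.

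Other MEF2 genes moved the opposite way where they were listed. In the C26m2 table Mef2a rose 1.82-fold, to 59.3 FPKM in cachectic muscle against 32.5 FPKM in healthy muscle. Mef2d rose 1.61-fold, to 126 FPKM against 78.5 FPKM. The summed FPKM of the 3 genes was 202 in C26m2 cachectic muscle against 215 in healthy CD2F1 muscle. Within that sum Mef2c took 7.96% in C26m2 cachectic muscle against 48.4% in healthy CD2F1 muscle, and Mef2d took 62.6% against 36.5%. The 4T1 table listed neither Mef2a nor Mef2d.

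Of 22 genes on the list of MEF2 family members and regulators, 12 were listed in 4T1, 3 higher and 9 lower. In C26m2, 14 were listed, 5 higher, Mef2a and Mef2d among them, and 9 lower. The shares listed were 54.5% in 4T1 and 63.6% in C26m2, beside 32.5% and 36.8% of all genes tested. The median log2 fold change of the listed members was -1.65 in 4T1 and -0.80 in C26m2. The kinase genes Camk2a and Map2k6, whose products act upstream of MEF2, fell 20.8-fold and 15.5-fold in 4T1 and 7.87-fold and 14.3-fold in C26m2. Mapk14 (p38 alpha), the kinase that MKK6 (Map2k6) activates, fell 4.08-fold and 2.66-fold. Smyd1 and Stac3, a muscle methyltransferase and an adaptor of the calcium channel, fell 10.5-fold and 10.9-fold in 4T1 and 2.99-fold and 3.21-fold in C26m2. Among the class II histone deacetylases that repress MEF2, Hdac9 fell to 0.531 FPKM in 4T1 cachectic muscle against 3.37 FPKM in healthy Balb/c muscle, and to 0.367 FPKM in C26m2 cachectic muscle against 1.77 FPKM in healthy CD2F1 muscle. Hdac4 rose 1.68-fold in 4T1. The C26m2 table holds 2 gene identifiers named Hdac4, higher 1.62-fold and 1.61-fold, so its reads may be split. Vgll2, a muscle cofactor of TEAD factors, rose 2.45-fold and 3.57-fold.

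Runx1 had the largest fold rise of the 5 genes in both models and the lowest healthy level. It was at 9.69 FPKM in 4T1 cachectic muscle against 0.451 FPKM in healthy Balb/c muscle, a 21.5-fold rise (log2 fold change 4.43). It was at 4.82 FPKM in C26m2 cachectic muscle against 0.413 FPKM in healthy CD2F1 muscle, an 11.7-fold rise (log2 fold change 3.54). By fold it was 70th of 2303 higher genes in 4T1 and 78th of 2847 in C26m2. An antisense gene overlaps Runx1 in the GENCODE annotation, and no source used here states whether strand was used, so reads of both cannot be told apart. Of 8 RUNX family members and partners, 2 were listed in each model (25%, beside 32.5% of genes tested in 4T1 and 36.8% in C26m2). The corepressor gene Tle1 rose 2.51-fold in 4T1 and 3.95-fold in C26m2. Its relative Tle3 rose 1.89-fold in 4T1, and Cbfb, the DNA-binding partner subunit of RUNX proteins, fell 1.70-fold in C26m2. Runx2 and Runx3 were not listed in either table.

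Runx1 is also made in blood cells, and neutrophil markers rose beside it. Of 14 neutrophil markers, 6 were listed in 4T1, all higher, with a summed level of 2134 FPKM in cachectic muscle against 3.30 FPKM in healthy Balb/c muscle. In C26m2, 5 were listed, all higher, with a summed level of 110 FPKM in cachectic muscle against 8.54 FPKM in healthy CD2F1 muscle. S100a8 was at 1367 FPKM in 4T1 cachectic muscle and at 46.2 FPKM in C26m2 cachectic muscle. The granule genes Mpo, Elane and Ltf were not listed. The shares of neutrophil markers listed were 42.9% in 4T1 and 35.7% in C26m2, beside 32.5% and 36.8% of all genes tested. Of 13 macrophage markers, 8 were listed in 4T1, 3 higher and 5 lower, with a summed level of 102 FPKM in cachectic muscle against 16.2 FPKM in healthy Balb/c muscle. In C26m2, 12 were listed, 2 higher and 10 lower, with a summed level of 45.2 FPKM in cachectic muscle against 66.9 FPKM in healthy CD2F1 muscle. The shares of macrophage markers listed were 61.5% in 4T1 and 92.3% in C26m2. Cd68 and Lgals3 carried most of the 4T1 sum, at 51.8 and 40.2 FPKM in cachectic muscle, while Ms4a7, Mrc1, Folr2 and Emr1 fell in both models. Each sum covers the markers listed in that model, so the sums of the 2 models hold different genes. The part of neutrophils and macrophages in the Runx1 and Mef2c values was not tested.

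Acetylcholinesterase fell in both models. Ache was at 1.47 FPKM in 4T1 cachectic muscle against 19.4 FPKM in healthy Balb/c muscle, a 13.2-fold fall (log2 fold change -3.72). It was at 2.54 FPKM in C26m2 cachectic muscle against 23.9 FPKM in healthy CD2F1 muscle, a 9.41-fold fall (log2 fold change -3.23). It was the lowest of the 5 genes in both cachectic groups. GENCODE places an antisense gene and a microRNA gene over Ache, so, with no strand stated, some of its reads may be theirs.

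Of the genes on the cholinesterase and anchor list, Prima1, Colq and Hspg2 fell where they were listed, and Musk, to which the anchor's collagen tail binds, rose in both models. Of 5 genes on this list, 3 were listed in 4T1 (60%, beside 32.5% of genes tested), Musk higher and 2 lower. All 5 were listed in C26m2, beside 36.8% of genes tested, Musk and Bche higher and 3 lower. The median log2 fold change was -1.90 in 4T1 and -1.23 in C26m2. Musk, Colq and Hspg2 are also among the junction organisers counted below, so the counts overlap. Prima1, which encodes the membrane anchor of acetylcholinesterase, fell 6.54-fold in 4T1 and 2.59-fold in C26m2. Colq, which encodes the collagen tail that fixes the enzyme at the junction, was listed in C26m2, at 1.07 FPKM in cachectic muscle against 3.16 FPKM in healthy CD2F1 muscle. Hspg2 (perlecan), which binds that tail, fell 3.74-fold and 2.34-fold. Bche, the related butyrylcholinesterase, rose 2.47-fold in C26m2 and was not listed in 4T1.

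Of the acetylcholine receptor, the adult subunit gene was the one listed in both models. Chrne was at 2.24 FPKM in 4T1 cachectic muscle against 8.76 FPKM in healthy Balb/c muscle, and at 3.19 FPKM in C26m2 cachectic muscle against 15.4 FPKM in healthy CD2F1 muscle. Chrnb1, the beta subunit, fell 2.78-fold in 4T1. The alpha, delta and fetal gamma subunit genes Chrna1, Chrnd and Chrng were not listed in either table. Thus 2 of 5 subunits were called in 4T1 (40%, beside 32.5% of genes tested) and 1 of 5 in C26m2 (20%, beside 36.8%).

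Among 18 genes that organise the junction, 5 were listed in 4T1 and 6 in C26m2, with Musk as the only higher member in each table. The median log2 fold change was -1.90 in 4T1 and -1.40 in C26m2. Musk, the receptor kinase that assembles the postsynaptic membrane, was at 5.16 FPKM in 4T1 cachectic muscle against 0.467 FPKM in healthy Balb/c muscle, an 11.0-fold rise. It was at 2.51 FPKM in C26m2 cachectic muscle against 1.16 FPKM in healthy CD2F1 muscle, a 2.17-fold rise. Lrp4, which receives agrin and activates MuSK, moved the other way, falling 5.71-fold in 4T1 and 3.76-fold in C26m2. Nes (nestin), a filament protein enriched beneath the junction, fell to 0.612 FPKM in 4T1 cachectic muscle against 3.87 FPKM in healthy Balb/c muscle and to 0.623 FPKM in C26m2 cachectic muscle against 2.62 FPKM in healthy CD2F1 muscle. The shares listed, 27.8% and 33.3%, were near those of all genes tested.

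**Figure D3:**
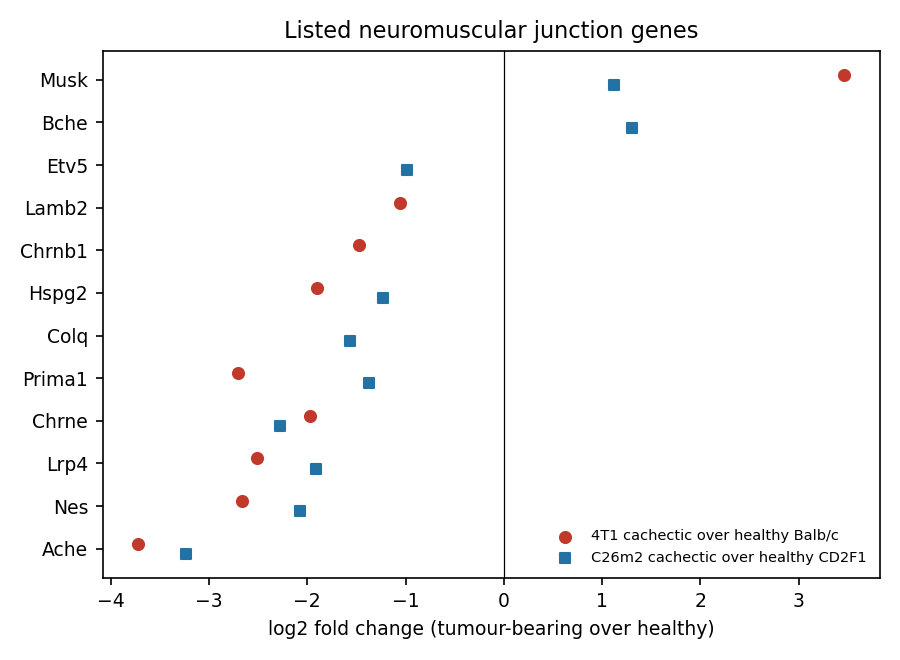
Log2 fold change of Ache and of the listed acetylcholine receptor, junction and cholinesterase-anchor genes (circles for 4T1 over healthy Balb/c, squares for C26m2 over healthy CD2F1), 1 authors' group pair per point and no point where a table does not list the gene. Musk and Bche lie to the right of 0 and the other genes to the left.

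Some Schwann cell markers fell beside the junction genes. Of 12, 3 were listed in 4T1 (25%, under the 32.5% of genes tested), all lower, with a summed level of 18.9 FPKM in cachectic muscle against 35.5 FPKM in healthy Balb/c muscle. In C26m2, 6 were listed (50%), 5 lower and Ngfr higher, with a summed level of 35.5 FPKM in cachectic muscle against 72.9 FPKM in healthy CD2F1 muscle. Sox10 and S100b, which define these cells, were not listed. Fibroblast markers fell more steeply. Of 10, 7 were listed in 4T1 and 8 in C26m2, all lower, with summed levels of 76.5 FPKM in 4T1 cachectic muscle against 400.4 FPKM in healthy Balb/c muscle and 87.8 FPKM in C26m2 cachectic muscle against 344 FPKM in healthy CD2F1 muscle. The shares of fibroblast markers listed were 70% in 4T1 and 80% in C26m2, beside 32.5% and 36.8% of all genes tested. The part of Schwann cells or fibroblasts in the Ache values was not tested.

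In the wider set of genes that respond to nerve loss, listed members were higher more often than lower. No expected direction was set for each gene. Of 25, 14 were listed in 4T1 (56%), 11 higher and 3 lower, and 11 in C26m2 (44%), 8 higher and 3 lower. Among all genes tested, 32.5% were listed in 4T1, 17.3% as higher and 15.2% as lower. In C26m2 36.8% were listed, 21.7% as higher and 15.1% as lower. Listed genes in general were thus also higher more often than lower, 53.1% of them in 4T1 and 58.9% in C26m2. The median log2 fold change of the listed members was 3.18 in 4T1 and 2.44 in C26m2, beside 0.86 and 0.72 over all listed genes. The list was made with earlier results known, and it holds general atrophy genes. Among these, Trim63 (MuRF1) and Fbxo32 (atrogin-1), ubiquitin ligases that myogenin activates after nerve loss in mice, rose 23.8-fold and 18.8-fold in 4T1 and 26.5-fold and 15.7-fold in C26m2. Myog itself rose 9.98-fold in 4T1 and 2.20-fold in C26m2, and its part in the change of these 2 ligase genes was not tested. The calcium pump inhibitor gene Sln rose 30.6-fold in 4T1 and was not listed in C26m2. The cell-cycle arrest genes Cdkn1a and Gadd45a rose 13.6-fold and 2.87-fold in 4T1 and 32.2-fold and 3.50-fold in C26m2. Sik1, a kinase that keeps class II histone deacetylases out of the nucleus, rose 33.8-fold in 4T1 and 18.6-fold in C26m2. Gdf5, a BMP ligand induced by nerve loss in mice, was at 2.10 FPKM in 4T1 cachectic muscle against 0.132 FPKM in healthy Balb/c muscle, and at 1.91 FPKM in C26m2 cachectic muscle against 0.0942 FPKM in healthy CD2F1 muscle.

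Several genes often used to mark nerve loss were outside both tables. The fetal receptor subunit gene Chrng, the receptor gene Chrna1, the adhesion gene Ncam1, and the embryonic and neonatal myosin genes Myh3 and Myh8 were not listed in either model. Of the fetal or cardiac isoform genes, Tnnt2 rose 6.07-fold in 4T1 while Actc1 fell to 2.43 FPKM in 4T1 cachectic muscle against 24.4 FPKM in healthy Balb/c muscle and to 3.10 FPKM in C26m2 cachectic muscle against 12.4 FPKM in healthy CD2F1 muscle. Scn4b, a channel subunit gene, fell to 19.4 FPKM in 4T1 cachectic muscle against 145 FPKM in healthy Balb/c muscle and to 37.8 FPKM in C26m2 cachectic muscle against 132 FPKM in healthy CD2F1 muscle. With Hdac9, Actc1 and Scn4b were the 3 lower members of the list in both models.

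All 5 genes changed further in 4T1 than in C26m2. The difference in log2 fold change, 4T1 minus C26m2, was 2.18 for Myog, 0.88 for Runx1, -0.59 for Myod1, -1.05 for Mef2c and -0.49 for Ache. Genes listed in both tables also changed further in 4T1, by a median of 0.18 among 1744 genes higher in both and 0.40 among 1368 genes lower in both. Against those genes the gap of Myog was larger than that of 98.8%, and the gap of Ache larger than that of 57.3%. No difference between models was tested, because the tables hold no value per library and these values chose the genes. Healthy levels were closer: healthy Balb/c over healthy CD2F1 was 1.81 for Myog, 1.09 for Runx1, 1.15 for Myod1, 1.22 for Mef2c and 0.812 for Ache, across tables normalized separately.

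**Figure D4:**
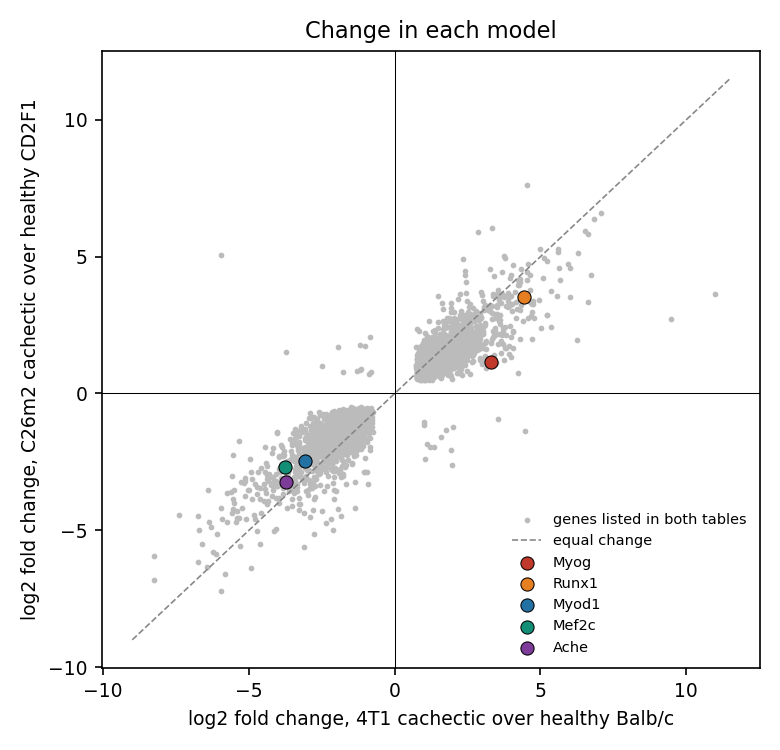
Log2 fold change in C26m2 (over healthy CD2F1) against that in 4T1 (over healthy Balb/c) for genes listed in both tables (grey) and the 5 genes (coloured), with a dashed line of equal change. Each of the 5 lies on the side of the line where 4T1 changed further, and Myog lies farthest from it, at 3.32 and 1.14.

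In the authors' deposited table for 4T1, the q-value was 0.000382 for each of the 5 genes, which goes with the smallest p-value given, 5e-05. In the authors' deposited table for C26m2, it was 0.000319 for Runx1, Myod1, Mef2c and Ache, again that of the smallest p-value, and 0.00349 for Myog.

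The 3 falling genes resembled one another more than the 2 rising ones did. Likeness was measured as the distance over the 4 log2 group FPKM values, each gene centred on its own mean. The distance was 0.49 between Mef2c and Ache, 0.53 between Myod1 and Mef2c and 0.85 between Myod1 and Ache, and 2.33 between Myog and Runx1. The search covered 2979 other genes listed in both tables that reached 1 FPKM in at least 1 group of each table. Myod1 had the closest match, Grb14, at a distance of 0.09, followed by Fam189b and Tnk2. Angptl1 (0.23), Ppapdc3 and Thbs4 were nearest to Mef2c, and 4933404O12Rik (0.24), Kcnn2 and Mamstr to Ache. Tmbim1 (0.21), D230025D16Rik and Irs2 were nearest to Runx1. Myog had no match as close, its nearest genes being Pik3cb (0.69), Pim1 and Baiap2l1.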

How the data were processed

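Poly-A RNA of 8 tibialis anterior libraries in 4 groups was sequenced, and the deposited tables hold 1 comparison each. The submitters' processing notes name the build NCBIM37 and the tools TopHat2 (version 2.1.0), Cufflinks (version 2.2.1) and Cuffdiff. No source used here gives the annotation release, library scaling, strand or depth. Group levels are the authors' FPKM, per the file headers. The log2 fold change is that of tumour-bearing over healthy, per the file headers, and was recomputed from the FPKM values with no pseudocount (largest difference 1.43e-05). Each p-value and q-value was deposited by the authors, per the file headers. The tables list genes at q of 0.05 or less, so a gene outside them is neither changed nor unchanged here.

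The number of genes tested was taken as the median of q times rank over p at each distinct p-value, a step tested on simulated data. It ran from 13178 to 13337 in 4T1 and from 13117 to 13147 in C26m2. The 5 genes and the 15 lists (9 of pathways, 6 of cell markers) were chosen with earlier results of these data known. Of each list, up to 4 genes with the largest change per direction and table were named. Mapk14, Mef2d, Tnnt2 and the genes named as not listed fall outside this rule and were chosen after their values were seen. An older and a newer symbol of 1 gene were counted once. Some genes stand on more than 1 list, so counts of different lists overlap. Some listed genes are not reported here. Without values per library, no refit or set test was made. Alternatives were pseudocounts of 1 and 0.1 FPKM, subtraction of the median change, q of 0.01, a minimum absolute log2 fold change of 1, and removal of genes under 1 FPKM in both groups. Python 3.11.15, pandas 2.3.3, numpy 2.4.6 and matplotlib 3.10.9 were used.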

Additional observations from a re-analysis of the deposited data

Results flagged for a closer look

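Ngfr, the gene of the p75 neurotrophin receptor and a marker of Schwann cells that have lost contact with axons, was called in opposite directions in the models. It was at 0.286 FPKM in 4T1 cachectic muscle against 1.09 FPKM in healthy Balb/c muscle (log2 fold change -1.94). It was at 2.52 FPKM in C26m2 cachectic muscle against 0.783 FPKM in healthy CD2F1 muscle (log2 fold change 1.69). The difference between models was not tested. Groups of 2 libraries with 1 value per group allow no check for single libraries that stand apart.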

How the results depend on the processing

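The direction of change of the 5 genes was kept in all 30 recomputed values, and 17 moved by less than 1.5 times. A pseudocount cannot reverse a direction, and subtracting a positive median cannot reverse a fall. Only Myog and Runx1 could have reversed, and only under the subtraction. The subtraction moves every gene of a model by the same amount, which is over 1.5 times in both models. With a pseudocount of 1 FPKM, the log2 fold change of Runx1 was 2.88 in 4T1 and 2.04 in C26m2, and that of Ache in 4T1 was -3.05, as low values shrink toward the pseudocount. Subtracting the median log2 fold change of listed genes (0.86 in 4T1, 0.72 in C26m2) gave 2.46 and 0.42 for Myog, 3.57 and 2.82 for Runx1, -3.92 and -3.20 for Myod1, -4.61 and -3.42 for Mef2c and -4.58 and -3.96 for Ache, in 4T1 and C26m2 in turn. That median comes from called genes, so it does not measure a scaling error.

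The 5 genes stayed called at q of 0.01 or less, at an absolute log2 fold change of 1 or more and without genes under 1 FPKM in both groups. At q of 0.01 or less, 2 junction organisers were lower in 4T1 and 3 in C26m2, and 1 cholinesterase or anchor gene in each model, where 10.3% of genes tested were lower in each. The same limit left 5 lower myogenesis genes, 1 lower helix-loop-helix partner and 1 higher RUNX partner in 4T1, and 3 higher genes of the MEF2 list and 4 lower excitation-contraction genes in C26m2. By this limit 11.8% of genes tested were higher in 4T1 and 15.9% in C26m2. With the minimum fold, 4T1 kept 1 lower helix-loop-helix partner and 1 higher RUNX partner. C26m2 then had 0 higher myogenesis genes, 1 higher helix-loop-helix partner, 2 higher genes of the MEF2 list, 0 lower RUNX partners and 5 lower excitation-contraction genes. With it, 14.5% of genes tested were higher and 13.3% lower in 4T1, and 13% and 10.8% in C26m2. These limits leave fewer genes by construction. The lowest and highest implied number of genes tested moved no share called by 1.5 times. No paired analysis was possible because the tables hold 1 value per group and the labels number no pairs, and libraries could not be left out for the same reason. The unknown depth limits statements on genes near or under 1 FPKM, such as Runx1 in healthy muscle.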

Other observations

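Most listed genes that couple excitation to contraction fell beside Mef2c and Ache, while Ryr1, Atp2a1 and Jsrp1 were not listed in either model. Of 13, 6 were listed in 4T1, all lower, and 9 in C26m2, 8 lower and 1 higher. The shares listed were 46.2% in 4T1 and 69.2% in C26m2, beside 32.5% and 36.8% of all genes tested. The median log2 fold change of the listed members was -3.58 in 4T1 and -1.21 in C26m2. Casq1, the calcium store protein of fast fibres, was at 31.3 FPKM in 4T1 cachectic muscle against 1491 FPKM in healthy Balb/c muscle, and at 66.4 FPKM in C26m2 cachectic muscle against 1355 FPKM in healthy CD2F1 muscle. Jph2 (junctophilin 2), which holds the membrane junctions of muscle together, fell 21.2-fold and 12.3-fold. The chloride channel gene Clcn1, which steadies the fibre's membrane, fell 13.1-fold and 5.91-fold. Cacng1, a calcium channel subunit gene, was the higher member in C26m2, at 527 FPKM in cachectic muscle against 229 FPKM in healthy CD2F1 muscle.

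Of 16 helix-loop-helix partners and inhibitors of the MyoD family, 2 were listed in 4T1 (12.5%, beside 32.5% of genes tested), both lower. In C26m2, 6 were listed (37.5%, beside 36.8%), 2 higher and 4 lower, and the listed members had a median log2 fold change of -1.65 in 4T1 and -1.16 in C26m2. The E protein genes Tcf3, Tcf4 and Tcf12, chosen after their values were seen, were in neither table. Bhlhe41, a repressor of the circadian and muscle programmes, was at 3.09 FPKM in 4T1 cachectic muscle against 15.5 FPKM in healthy Balb/c muscle. It was at 3.10 FPKM in C26m2 cachectic muscle against 19.5 FPKM in healthy CD2F1 muscle. The inhibitors moved apart in C26m2, Id1 rising 1.81-fold and Id2 falling 2.55-fold.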
